A study of Mus musculus with 18 samples.

Results

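Genes that mark fibroblasts, pericytes and smooth muscle were followed in RNA from lung cells captured for the epithelial surface protein EpCAM. The list names 37 mesenchymal genes. They were found by mapping Ensembl identifiers to symbols, and 32 were measured among the 15544 genes of the deposited values. Of these, 30 passed a filter on low values and entered a test over 15249 genes. Wnt2 and Fgf10 were measured with means of 5.98 and 5.89 log2 units over all libraries, just below the minimum of 6, and Adcy8, at 6.62, lay just above it. Lum, Cnn1, Actg2, Gli1 and Rgs5 were not analysed here. By their known roles the 32 measured members comprise 13 genes of fibroblast identity and signalling, 10 genes of the extracellular matrix, 4 of smooth muscle, 3 of pericytes and 2 of the cytoskeleton of many cell types.

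The 18 libraries come from mice 10 to 12 weeks old of 4 genotypes. They are 4 libraries labelled double-heterozygous (Falcor+/-;Foxa2+/-, replicates 15 to 18), 5 of Falcor-/- (replicates 6 to 10), 4 of Foxa2+/- (replicates 11 to 14) and 5 of wild type (replicates 1 to 5). All were made from total RNA of cells taken up by magnetic beads for EpCAM, with no step against other lung cells given in the labels. Foxa2 is a forkhead transcription factor of lung epithelium, and Falcor is a long non-coding RNA from the neighbouring gene 9030622O22Rik. The study asks what the loss of Falcor, of a Foxa2 copy, or of a copy of each does to these cells. How the Falcor allele and the Foxa2 allele were made is not given in the sources used here.

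Lung fibroblasts make the matrix of the alveolar and airway walls and send growth factors such as FGF and Wnt ligands to the epithelium. Pericytes sit on capillaries and depend on PDGF signals from the endothelium, while smooth muscle cells ring the airways and larger vessels and contract through actin and myosin. In adult lung none of these cells is known for surface EpCAM.

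The labels were first set against the RNA. Falcor RNA, as a mean log2 level ± SD, was 11.66 ± 0.15 in the libraries labelled double-heterozygous (n = 4), 6.20 ± 0.68 in Falcor-/- (n = 5), 11.70 ± 0.21 in Foxa2+/- (n = 4) and 10.18 ± 0.48 in wild type (n = 5). It was thus low in Falcor-/- alone, and the lost Falcor copy of the double-heterozygous label does not show in this transcript. Foxa2 was 12.36 ± 0.19 in the libraries labelled double-heterozygous, 12.74 ± 0.23 in Falcor-/-, 12.39 ± 0.05 in Foxa2+/- and 12.97 ± 0.08 in wild type (SD, same n). Epcam ran from 13.75 to 14.48 and Cdh1, the epithelial cadherin, from 15.36 to 15.88 over the 18 libraries. Epcam, the target of the capture, and Cdh1 were therefore high in every library, and the mesenchymal members were present beside them. Some other epithelial markers ran lower, such as Cldn4 at 9.62 to 11.73 and Cdh3 at 6.02 to 8.50. All values are log2 levels with nearly the same distribution in each library (library medians of 11.03 and 95th percentiles of 14.04 in all 18). Depth is unknown, and each change is read against the rest of the genes.

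Most mesenchymal members fell in both groups that lack a Foxa2 copy. In the libraries labelled double-heterozygous 21 of 30 tested members were lower than in wild type and 0 were higher. In Falcor-/- 4 of 30 were lower, and in Foxa2+/- 18 of 30 were lower, again with 0 higher in each. Over all genes tested 7.57% were called lower and 7.21% higher in the libraries labelled double-heterozygous, 4.24% lower and 5.23% higher in Falcor-/-, and 4.15% lower and 1.96% higher in Foxa2+/-. A gene was called below an adjusted p of 0.05 in limma, with Benjamini-Hochberg adjustment over all genes tested. The 3 comparisons share the same 5 wild-type libraries. The members were chosen with earlier results of these data known. Cyp26b1, Adcy8, Dach1, Ccn5 and Fgfr4 had already been seen among the large Foxa2+/- falls. The counts therefore describe the list and are not independent support. Adcy8 in both groups lacking a Foxa2 copy, and Ccn5 in Foxa2+/-, had means below 6 and passed the filter through other groups. The median change of the tested members against wild type was -1.98 log2 units in the libraries labelled double-heterozygous, -0.63 in Falcor-/- and -1.61 in Foxa2+/-, while the median over all genes was 0.07, 0.03 and 0.04. In these bulk samples fewer cells of a type and less RNA per cell cannot be told apart.

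**Figure D1:**
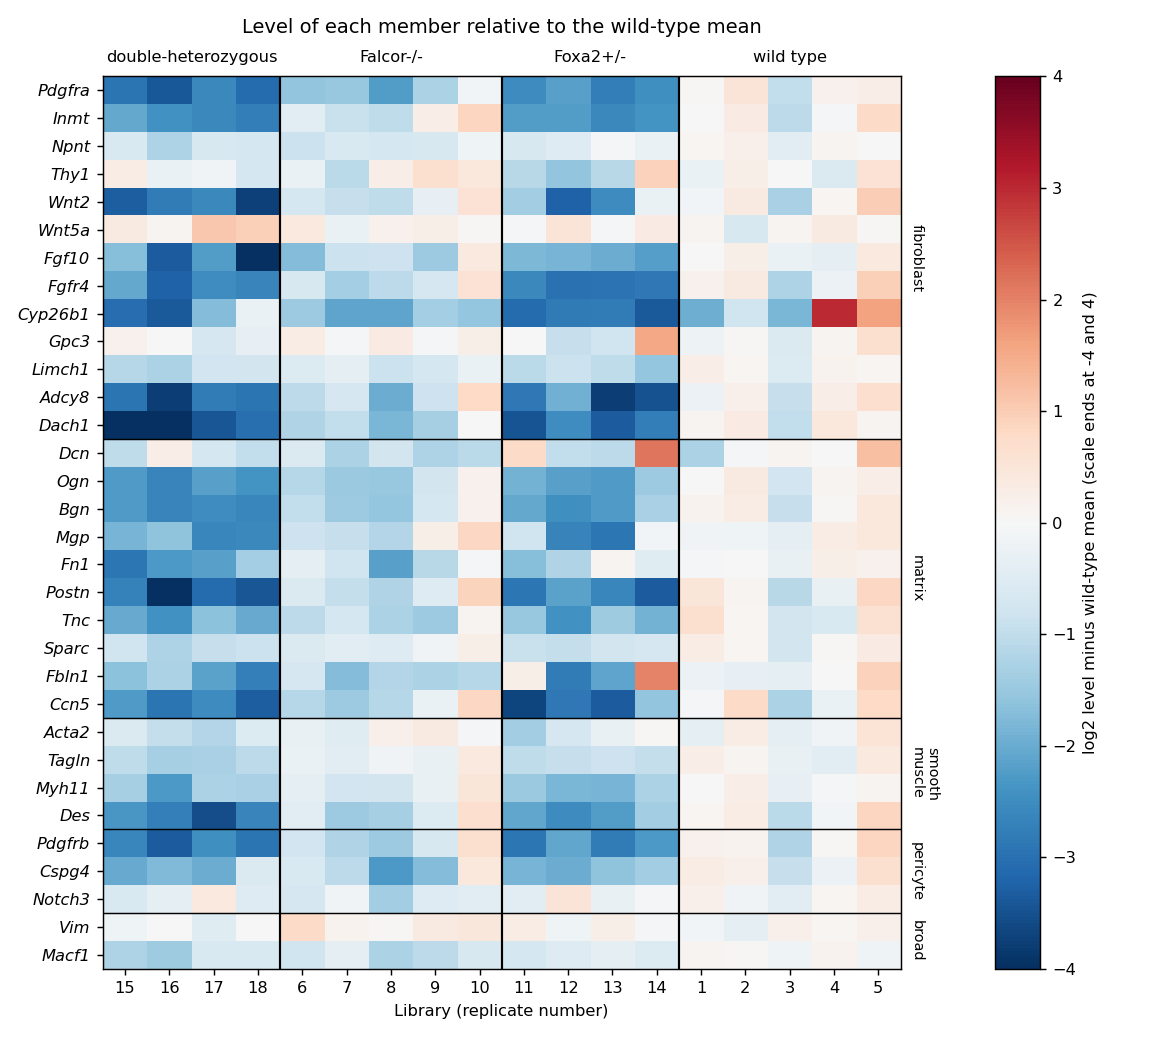
Log2 level of each of the 32 measured members (rows, grouped by role) in each of the 18 libraries (columns, by genotype and replicate number), minus the mean of the 5 wild-type libraries. Blue marks a lower and red a higher level. The Foxa2+/- libraries and those labelled double-heterozygous are blue for most rows, Falcor-/- libraries are paler, and Dcn, Fbln1 and Gpc3 stand out in red in Foxa2+/- replicate 14.

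The wild-type mean was the highest of the 4 genotype means for 28 of 32 members (87.5%), against 2847 of the 15249 genes tested. For 16 of 32, against 4.96% of all genes, the means ran, low to high, from the double-heterozygous label through Foxa2+/- and Falcor-/- to wild type. The order is that of the means alone, and neighbouring genotypes did not always differ beyond their spread. Since the members were chosen with earlier results of these data known, these shares are a description and not independent support.

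Promoters are shown for Pdgfra, Dach1, Postn and Des, which fell in both groups lacking a Foxa2 copy, and for Notch3, which was called in neither. Each window is the 250 bases before a RefSeq transcription start on GRCm38.p6, read 5′ to 3′ on the strand of the gene. The windows are chr5:75152001-75152250 on the plus strand for Pdgfra, chr14:98169766-98170015 on the minus strand for Dach1, chr3:54360857-54361106 on the plus strand for Postn, chr1:75360042-75360291 on the plus strand for Des and chr17:32166891-32167140 on the minus strand for Notch3. Capitals mark matches to the motifs searched on both strands, namely TATAAA, the GC box GGGCGG (or CCGCCC on the other strand) and the forkhead-type TGTTTAC.
Pdgfra: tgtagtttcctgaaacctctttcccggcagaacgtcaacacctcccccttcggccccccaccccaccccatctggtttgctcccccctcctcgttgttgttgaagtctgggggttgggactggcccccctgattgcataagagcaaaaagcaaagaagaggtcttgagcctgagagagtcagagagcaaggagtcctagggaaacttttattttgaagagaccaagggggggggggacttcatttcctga
Dach1: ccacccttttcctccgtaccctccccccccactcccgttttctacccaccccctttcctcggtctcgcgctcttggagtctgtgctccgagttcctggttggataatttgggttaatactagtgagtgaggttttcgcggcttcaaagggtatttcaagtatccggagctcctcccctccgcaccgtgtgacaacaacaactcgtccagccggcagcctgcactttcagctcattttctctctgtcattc
Postn: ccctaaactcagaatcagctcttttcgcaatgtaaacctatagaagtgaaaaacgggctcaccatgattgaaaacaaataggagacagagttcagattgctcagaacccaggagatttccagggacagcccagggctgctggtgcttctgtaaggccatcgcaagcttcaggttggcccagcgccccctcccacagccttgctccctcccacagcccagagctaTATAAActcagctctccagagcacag
Des: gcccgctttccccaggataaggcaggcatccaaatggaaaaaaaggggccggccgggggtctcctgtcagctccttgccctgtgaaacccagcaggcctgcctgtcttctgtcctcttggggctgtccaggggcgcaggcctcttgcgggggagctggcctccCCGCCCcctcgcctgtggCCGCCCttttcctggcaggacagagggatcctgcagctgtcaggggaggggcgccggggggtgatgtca
Notch3: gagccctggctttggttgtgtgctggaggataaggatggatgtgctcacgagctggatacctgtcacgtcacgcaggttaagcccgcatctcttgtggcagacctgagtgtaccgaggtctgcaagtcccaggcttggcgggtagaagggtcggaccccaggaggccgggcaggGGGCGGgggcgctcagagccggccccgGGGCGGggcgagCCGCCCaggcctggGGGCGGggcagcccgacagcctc
Postn holds TATAAA near its start, Des holds 2 copies of CCGCCC, and Notch3 holds GGGCGG and CCGCCC, while the Pdgfra and Dach1 windows hold none of these letters. RefSeq windows were matched for 22 of the 32 measured members, 28 windows in all. TATAAA was in 8 of the 28, against 12.4% of all 32851 windows of this length, and GGGCGG was in 14 of the 28, against 32.7%. TGTTTAC was in 2 of the 28, those of Fgf10 and Limch1, against 3.17%. The CArG box of smooth muscle genes was in 0 of the 28, against 1.47%. A match is a description of letters only. The authors aligned to mm9, so these positions belong to the windows and not to the levels.

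Among the fibroblast genes, Pdgfra, the receptor for PDGF ligands that marks most lung fibroblasts, was called in all 3 mutant genotypes. Its log2 level was 9.04, 8.55, 9.36 and 8.88 in the libraries labelled double-heterozygous, 10.36, 10.45, 9.71, 10.69 and 11.85 in Falcor-/-, 9.44, 9.77, 9.18 and 9.50 in Foxa2+/- and 12.01, 12.45, 10.96, 12.11 and 12.22 in wild type. Every library of the double-heterozygous label and of Foxa2+/- lay below every wild-type library, and Falcor-/- replicate 10 lay inside the wild-type range. Pdgfra fell to 12.6% of wild type in the libraries labelled double-heterozygous (change -2.99, SE 0.34, limma adjusted p = 4.41e-05). In Foxa2+/- it fell to 17.9% (change -2.48, SE 0.34, adjusted p = 0.000654). For both, an exact permutation of the libraries gave p = 0.00794, the smallest that 4 against 5 libraries can give. In Falcor-/- it fell to 39.6% (change -1.34, SE 0.32, limma adjusted p = 0.0234, exact permutation p = 0.0159). That Falcor-/- call was lost in 4 of 17 alternatives, including the fits without Falcor-/- replicate 8, wild-type replicate 1 or wild-type replicate 2 (adjusted p up to 0.0654).

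Dach1, a transcriptional cofactor of the dachshund family, had the lowest share of its wild-type level among the tested members in the libraries labelled double-heterozygous. Its level was 5.92, 5.56, 6.54 and 6.93 there, 8.75, 8.97, 8.13, 8.61 and 9.97 in Falcor-/-, 6.50, 7.46, 6.64 and 7.18 in Foxa2+/- and 10.07, 10.29, 8.97, 10.38 and 10.06 in wild type. Both groups lacking a Foxa2 copy lay below all other libraries, and wild-type replicate 3 was the lowest of its group. Dach1 fell to 7.61% of wild type under the double-heterozygous label (change -3.72, SE 0.37, limma adjusted p = 3.07e-05) and to 12.4% in Foxa2+/- (change -3.01, SE 0.37, adjusted p = 0.000595). In Falcor-/- its change of -1.07 (SE 0.35) did not pass (adjusted p = 0.0571). That change was called without Falcor-/- replicate 10 (-1.34, adjusted p = 0.0254), Falcor-/- replicate 7 (-1.09, adjusted p = 0.0465) or wild-type replicate 3 (-1.31, adjusted p = 0.0275). Those fits called 596, 1800 and 669 of 15249 genes lower, against 647 in the main fit.

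Inmt, an N-methyltransferase abundant in mouse lung fibroblasts, was called in both groups lacking a Foxa2 copy and not in Falcor-/-. It had 11.56, 11.17, 11.03 and 10.83 log2 units in the libraries labelled double-heterozygous, 13.18, 12.71, 12.59, 13.87 and 14.46 in Falcor-/-, 11.36, 11.38, 11.01 and 11.22 in Foxa2+/- and 13.59, 13.93, 12.56, 13.55 and 14.35 in wild type. The Falcor-/- range took in nearly all of the wild-type range, and the other mutant libraries all lay below both. Inmt fell by 2.45 (SE 0.35, limma adjusted p = 0.000195) under the double-heterozygous label and by 2.36 (SE 0.35, adjusted p = 0.000755) in Foxa2+/-. Its Falcor-/- change was -0.24 (SE 0.33, adjusted p = 0.631).

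The FGF receptor Fgfr4 and the calcium-stimulated adenylyl cyclase Adcy8 fell in both groups lacking a Foxa2 copy. Fgfr4 lay at 5.92 to 7.12 in the libraries labelled double-heterozygous, 7.81 to 9.73 in Falcor-/-, 6.19 to 6.57 in Foxa2+/- and 7.91 to 10.11 in wild type, a change of -2.60 (SE 0.40, limma adjusted p = 0.000324) under the double-heterozygous label and of -2.84 (SE 0.40, adjusted p = 0.000667) in Foxa2+/-. Adcy8 lay at 4.41 to 5.39, 6.20 to 8.99, 4.41 to 6.27 and 7.26 to 8.86 in the same groups. Its changes were -3.10 (SE 0.48, adjusted p = 0.000357) under the double-heterozygous label and -3.01 (SE 0.48, adjusted p = 0.000995) in Foxa2+/-. Adcy8 passed the filter on low values through its Falcor-/- and wild-type levels, since its means of 5.08 and 5.17 in the other groups were below 6. Neither gene was called in Falcor-/- (adjusted p = 0.243 for Fgfr4 and 0.25 for Adcy8).

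Limch1, which binds non-muscle myosin, and Npnt, the integrin ligand nephronectin, moved less. Both lay near the level of Epcam (13.75 to 14.48), with Limch1 at 13.11 to 14.92 over all libraries. The part of epithelial RNA in the levels of these genes was not tested. Limch1 fell by 0.97 (SE 0.18, limma adjusted p = 0.00138) under the double-heterozygous label and by 1.13 (SE 0.18, adjusted p = 0.000903) in Foxa2+/-. Its Falcor-/- change of -0.54 (SE 0.17) did not pass (adjusted p = 0.0512). That change was called with a minimum mean of 8, library weights or pan-epithelial centring, and without Falcor-/- replicate 10 or 7 or wild-type replicate 3. Adjusted p there was 0.0163 to 0.0499, and these fits called 596 to 1800 genes lower, against 647 in the main fit. Npnt was 13.54 to 14.18 in the libraries labelled double-heterozygous, 13.93 to 14.62 in Falcor-/-, 14.16 to 14.76 in Foxa2+/- and 14.37 to 15.005 in wild type. Npnt fell under the double-heterozygous label (change -0.81, SE 0.17, adjusted p = 0.00367) and in Falcor-/- (change -0.60, SE 0.16, adjusted p = 0.0308), and its Foxa2+/- change of -0.36 (SE 0.17) did not pass (adjusted p = 0.242). The Falcor-/- call was lost in 6 of 17 alternatives, all of them leaving out 1 library (Falcor-/- replicates 6, 8 or 9, wild-type replicates 1, 2 or 4), with an adjusted p of up to 0.0794.

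Cyp26b1, the enzyme that clears retinoic acid, was set apart by its wild-type spread. It was 6.13, 5.81, 7.46 and 8.91 in the libraries labelled double-heterozygous, 7.73, 7.07, 7.06, 7.83 and 7.63 in Falcor-/-, 6.11, 6.35, 6.39 and 5.82 in Foxa2+/-, and 7.21, 8.40, 7.35, 12.16 and 10.79 in wild type. Wild-type replicates 4 and 5 lay far above the other wild-type libraries. It was called in Foxa2+/- (change -3.01, SE 0.84, limma adjusted p = 0.0401), but not under the double-heterozygous label (-2.11, SE 0.84, adjusted p = 0.102) or in Falcor-/- (-1.72, SE 0.79, adjusted p = 0.137). Under the double-heterozygous label it was called in 3 alternatives, among them the fit without replicate 18 of that label (-2.72, adjusted p = 0.041). The Foxa2+/- call was lost in 7 of 15 alternatives, among them the fits without wild-type replicate 4, wild-type replicate 5 or any single Foxa2+/- library, with changes of -3.51 to -2.27 and adjusted p of 0.0158 to 0.107 over the alternatives.

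The secreted signals of fibroblasts did not move alike. Fgf10, the growth factor that signals to lung epithelium, lay at 5.56, 3.93, 5.03 and 2.07 in the libraries labelled double-heterozygous, 5.53, 6.41, 6.45, 5.82 and 7.66 in Falcor-/-, 5.49, 5.40, 5.27 and 5.08 in Foxa2+/- and 7.29, 7.51, 6.9995, 6.90 and 7.67 in wild type. Wnt2, a Wnt ligand of lung mesenchyme, lay at 3.91, 4.41, 4.63 and 3.48 in the libraries labelled double-heterozygous, 6.50, 6.31, 6.20, 6.89 and 7.78 in Falcor-/-, 5.82, 3.997, 4.69 and 6.96 in Foxa2+/- and 7.11, 7.59, 5.91, 7.29 and 8.19 in wild type. Both genes were under the filter, and with no filter both were called lower under the double-heterozygous label (Fgf10 -3.13, limma adjusted p = 0.00101, and Wnt2 -3.11, adjusted p = 0.00102). In Foxa2+/- with no filter Fgf10 was called (-1.96, adjusted p = 0.0404) and Wnt2 was not (-1.85, adjusted p = 0.0533).

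Wnt5a, another Wnt ligand, had a mean above that of wild type in every mutant and was not called. It lay at 10.07, 9.83, 10.79 and 10.66 in the libraries labelled double-heterozygous, 10.11, 9.45, 9.87, 9.93 and 9.75 in Falcor-/-, 9.66, 10.21, 9.64 and 10.03 in Foxa2+/- and 9.82, 9.06, 9.82, 10.08 and 9.77 in wild type. Its change under the double-heterozygous label was 0.63 (SE 0.22), did not pass (limma adjusted p = 0.0645), and the ranges overlapped. Without replicate 16 of that label it was called higher (0.80, adjusted p = 0.0358). Thy1, a surface glycoprotein of some fibroblasts and of T cells, and Gpc3, a glypican, were called in no comparison, except that Thy1 was higher in Falcor-/- than in Foxa2+/- without Foxa2+/- replicate 14 (1.26, limma adjusted p = 0.0411). Their changes against wild type were -0.20, 0.00 and -0.72 for Thy1 and -0.20, 0.15 and -0.05 for Gpc3 in the double-heterozygous label, Falcor-/- and Foxa2+/-, in that order.

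**Figure D2:**
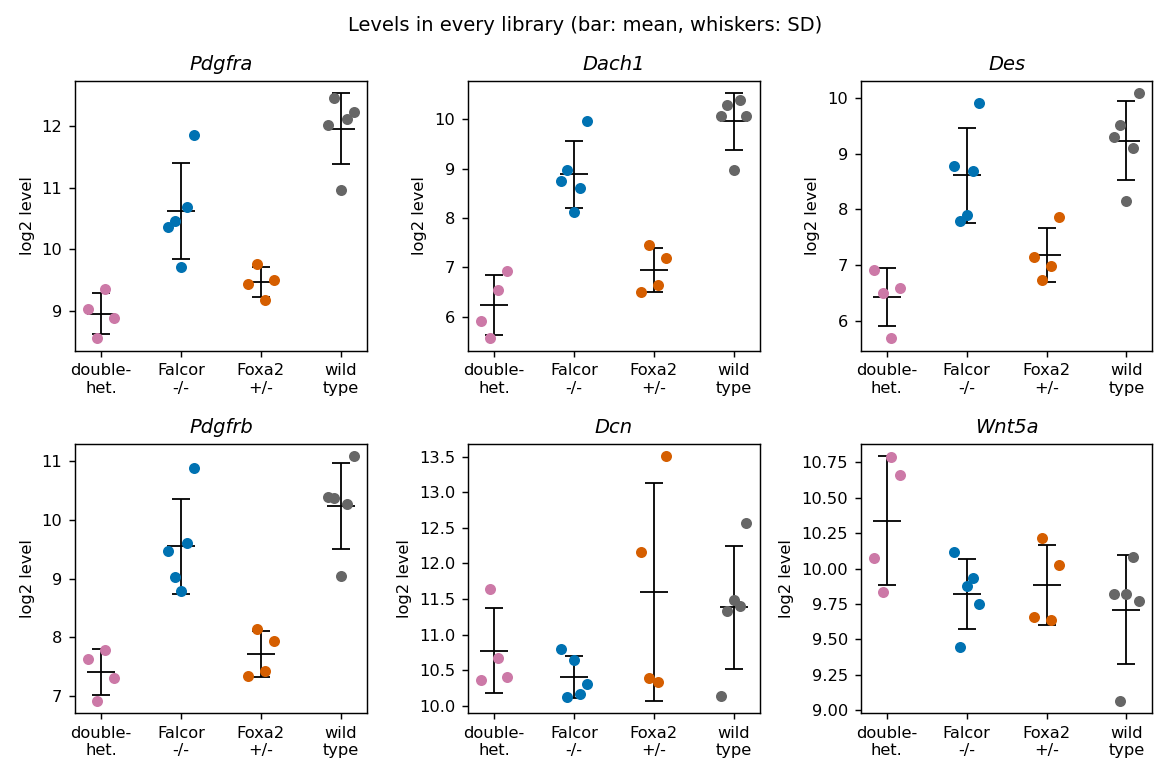
Log2 level of 6 members in each library, with the mean and SD of each genotype (4 libraries of the double-heterozygous label, 5 of Falcor-/-, 4 of Foxa2+/- and 5 of wild type). Pdgfra, Dach1, Des and Pdgfrb are lowest in both groups lacking a Foxa2 copy, Dcn is spread out by Foxa2+/- replicates 14 at 13.51 and 11 at 12.15, and the Wnt5a ranges overlap.

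Of 10 matrix genes, 8 fell under the double-heterozygous label, 1 in Falcor-/- and 6 in Foxa2+/- (7.57%, 4.24% and 4.15% of all genes tested). Postn, the matricellular protein periostin, had the largest of these falls under the double-heterozygous label. It lay at 8.47, 7.17, 8.10 and 7.76 in the libraries labelled double-heterozygous, 10.61, 10.23, 9.97, 10.67 and 12.07 in Falcor-/-, 8.29, 9.03, 8.56 and 7.86 in Foxa2+/- and 11.66, 11.30, 10.06, 10.87 and 12.01 in wild type. Every library of the double-heterozygous label and of Foxa2+/- lay below every Falcor-/- and wild-type library. Postn fell to 10.1% of wild type under the double-heterozygous label (change -3.31, SE 0.42, limma adjusted p = 8.54e-05) and to 14.9% in Foxa2+/- (change -2.74, SE 0.42, adjusted p = 0.000874), and its Falcor-/- change was -0.47 (SE 0.40, adjusted p = 0.411).

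Ogn and Bgn are small leucine-rich proteoglycans that bind collagen. Ogn was 8.50 to 8.98 in the libraries labelled double-heterozygous, 9.63 to 11.32 in Falcor-/-, 8.88 to 9.69 in Foxa2+/- and 10.36 to 11.51 in wild type. Ogn fell by 2.36 (SE 0.30, limma adjusted p = 8.54e-05) under the double-heterozygous label, by 0.93 (SE 0.28, adjusted p = 0.0488) in Falcor-/- and by 1.94 (SE 0.30, adjusted p = 0.000887) in Foxa2+/-. The Falcor-/- call of Ogn was lost in 11 of 17 alternatives, including 8 of the 10 fits without 1 library (all except those without Falcor-/- replicate 10 or wild-type replicate 3), with adjusted p up to 0.113. Bgn was 10.40 to 10.79 in the libraries labelled double-heterozygous, 11.50 to 13.21 in Falcor-/-, 10.60 to 11.75 in Foxa2+/- and 12.11 to 13.47 in wild type. Its changes were -2.49 (adjusted p = 0.000102), -0.90 (not called, adjusted p = 0.0646) and -2.01 (adjusted p = 0.00106) in the same order of genotypes. The Falcor-/- change of Bgn was called without Falcor-/- replicate 10 (-1.17, adjusted p = 0.0221) or wild-type replicate 3 (-1.14, adjusted p = 0.0273). Those fits called 596 and 669 of 15249 genes lower.

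The matricellular genes Tnc, Sparc and Ccn5 fell in both groups lacking a Foxa2 copy. Tenascin C, from Tnc, changed by -2.02 (limma adjusted p = 0.000836) under the double-heterozygous label and by -1.81 (adjusted p = 0.00342) in Foxa2+/-. Sparc, a collagen-binding protein that endothelial cells also make, changed by -0.96 (adjusted p = 0.00315) and by -0.81 (adjusted p = 0.0171). The Foxa2+/- call of Sparc was lost without Foxa2+/- replicate 12 or wild-type replicate 5, with adjusted p up to 0.0591. Ccn5, a CCN-family protein, changed by -2.75 (adjusted p = 0.00163) under the double-heterozygous label and by -2.86 (adjusted p = 0.00211) in Foxa2+/-. Ccn5 had a Foxa2+/- mean of 5.99, so it passed the filter through the other groups. In Falcor-/- Tnc (adjusted p = 0.0817), Sparc (adjusted p = 0.263) and Ccn5 were not called. Tnc was called there without Falcor-/- replicate 10 (-1.12, adjusted p = 0.0391). Sparc was called there without wild-type replicate 3 (-0.48, adjusted p = 0.0476). Those fits called 596 and 669 of 15249 genes lower.

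Fn1 and Mgp were called under the double-heterozygous label and not in Foxa2+/-. Fibronectin, from Fn1, lay at 10.29, 10.90, 11.01 and 11.84 in the libraries labelled double-heterozygous, 12.81, 12.39, 11.03, 12.07 and 13.13 in Falcor-/-, 11.49, 11.99, 13.32 and 12.70 in Foxa2+/- and 13.12, 13.19, 12.88, 13.41 and 13.35 in wild type. It fell by 2.18 (SE 0.40, limma adjusted p = 0.00143) under the double-heterozygous label, and its changes of -0.91 in Falcor-/- (adjusted p = 0.108) and -0.82 in Foxa2+/- (adjusted p = 0.274) did not pass. Fn1 is also made by macrophages, and 12 macrophage markers averaged 10.75 to 11.88 in the libraries labelled double-heterozygous, 10.37 to 12.79 in Falcor-/-, 12.46 to 12.76 in Foxa2+/- and 12.31 to 13.03 in wild type. The part of macrophage RNA in the Fn1 levels was not tested. Mgp, the calcification inhibitor matrix Gla protein, fell by 2.17 (SE 0.52, adjusted p = 0.00954) under the double-heterozygous label, while its Foxa2+/- change of -1.61 (SE 0.52) did not pass (adjusted p = 0.0775). The Foxa2+/- change of Mgp was called in 3 alternatives, among them the fit without Foxa2+/- replicate 14 (-2.12, adjusted p = 0.0161).

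Dcn and Fbln1 were split within Foxa2+/-, with replicates 11 and 14 above replicates 12 and 13. Decorin, from Dcn, lay at 10.36, 11.64, 10.67 and 10.40 in the libraries labelled double-heterozygous, 10.79, 10.12, 10.65, 10.16 and 10.30 in Falcor-/-, 12.15, 10.39, 10.33 and 13.51 in Foxa2+/- and 10.13, 11.33, 11.48, 11.40 and 12.57 in wild type. Fibulin 1, from Fbln1, lay at 8.08, 8.46, 7.57 and 6.99, then 9.06, 7.999, 8.54, 8.44 and 8.59, then 9.96, 6.92, 7.60 and 11.69, and then 9.49, 9.39, 9.38, 9.73 and 10.65 in the same order of genotypes. The highest values of both genes were in Foxa2+/- replicate 14. Neither was called in any comparison, apart from Fbln1 in the alternatives given here. The Fbln1 change was -1.95 (SE 0.68, limma adjusted p = 0.0637) under the double-heterozygous label and -1.20 (SE 0.64, adjusted p = 0.196) in Falcor-/-, although in both groups every library lay below every wild-type library (exact permutation p = 0.00794). In the fit of the compared genotypes only, which leaves out the Foxa2+/- spread, Fbln1 was called lower under the double-heterozygous label (adjusted p = 0.00485) and in Falcor-/- (adjusted p = 0.0415). With each library centred on its pan-epithelial mean it was called under the double-heterozygous label (adjusted p = 0.0215). That mean was 13.12 under the label and 12.84 in wild type, so centring moved every gene down in this comparison. The centred fit called 3456 of 15249 genes lower, against 1154 without centring, with a median change of -0.21. Foxa2+/- replicate 14 was also highest of its group for Thy1 (8.29), Gpc3 (13.12) and Mgp (11.93). Mesothelial cells cover the lung surface and also make matrix. The mean of 5 mesothelium markers ran from 8.18 to 9.35 in the libraries labelled double-heterozygous, 7.61 to 9.29 in Falcor-/-, 7.21 to 12.12 in Foxa2+/- and 7.63 to 10.65 in wild type, and 0 of the 5 were called. Within Foxa2+/- it was 10.41 in replicate 11, 7.21 in replicate 12, 8.19 in replicate 13 and 12.12 in replicate 14, where Msln was 13.42, Upk3b 13.31 and Wt1 10.16. The 2 libraries high for Dcn, Fbln1 and Mgp were thus also the 2 high for mesothelium markers. The part of mesothelial RNA in these levels was not tested.

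Smooth muscle genes fell in both groups lacking a Foxa2 copy, 3 of 4 in each, and 0 of 4 were called in Falcor-/-. Among all genes tested 7.57% were called lower under the double-heterozygous label, 4.24% in Falcor-/- and 4.15% in Foxa2+/-. Des, the muscle intermediate filament desmin, lay at 6.91, 6.50, 5.68 and 6.59 in the libraries labelled double-heterozygous, 8.79, 7.78, 7.90, 8.69 and 9.91 in Falcor-/-, 7.15, 6.73, 6.99 and 7.86 in Foxa2+/- and 9.30, 9.51, 8.15, 9.11 and 10.09 in wild type. Every library of the double-heterozygous label lay below every Falcor-/- and wild-type library. Des fell in both groups lacking a Foxa2 copy, with changes of -2.81 (SE 0.42, limma adjusted p = 0.000272) under the double-heterozygous label and -2.05 (SE 0.42, adjusted p = 0.0062) in Foxa2+/-, and its Falcor-/- change was -0.62 (SE 0.40, adjusted p = 0.279).

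Myh11, the smooth muscle myosin heavy chain and the most specific member of this group, lay at 7.18, 6.21, 7.23 and 7.20 in the libraries labelled double-heterozygous, 8.12, 7.74, 7.75, 8.19 and 8.98 in Falcor-/-, 6.9995, 6.66, 6.64 and 7.22 in Foxa2+/- and 8.50, 8.75, 8.15, 8.46 and 8.60 in wild type. Its changes were -1.54 (SE 0.26, limma adjusted p = 0.000813) under the double-heterozygous label, -0.34 (SE 0.25, adjusted p = 0.34) in Falcor-/- and -1.61 (SE 0.26, adjusted p = 0.00106) in Foxa2+/-. Tagln, the actin-binding protein transgelin, changed by -1.18 (SE 0.18, adjusted p = 0.000285), -0.15 (SE 0.17, adjusted p = 0.547) and -0.93 (SE 0.18, adjusted p = 0.00382). Acta2, the alpha actin of smooth muscle and myofibroblasts, was called in no comparison. Its libraries under the double-heterozygous label lay at 6.42 to 7.03, below the wild-type range of 7.21 to 8.15, and the change of -0.80 (SE 0.28) had an adjusted p of 0.0652. With each library centred on its pan-epithelial mean it was called (-1.08, adjusted p = 0.0158). Centring moved every gene down in this comparison, and 3456 of 15249 genes were then called lower, against 1154 without centring.

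The pericyte genes parted from each other. Pdgfrb, the PDGF receptor that pericytes need, lay at 7.63, 6.92, 7.79 and 7.31 in the libraries labelled double-heterozygous, 9.46, 9.02, 8.80, 9.61 and 10.87 in Falcor-/-, 7.35, 8.14, 7.43 and 7.94 in Foxa2+/- and 10.40, 10.38, 9.05, 10.27 and 11.09 in wild type. The 2 groups lacking a Foxa2 copy lay below every other library. Pdgfrb fell to 14.1% of wild type under the double-heterozygous label (change -2.82, SE 0.40, limma adjusted p = 0.000158) and to 17.4% in Foxa2+/- (change -2.52, SE 0.40, adjusted p = 0.000921), with a Falcor-/- change of -0.68 (SE 0.37, adjusted p = 0.203).

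Cspg4, the NG2 proteoglycan of pericyte surfaces, lay at 6.41, 6.65, 6.42 and 7.85 in the libraries labelled double-heterozygous, 7.80, 7.37, 6.10, 6.67 and 8.83 in Falcor-/-, 6.57, 6.44, 6.80 and 7.04 in Foxa2+/- and 8.72, 8.63, 7.50, 8.17 and 9.06 in wild type. It was called under the double-heterozygous label (-1.58, SE 0.46, limma adjusted p = 0.0279) and in Foxa2+/- (-1.70, SE 0.46, adjusted p = 0.0342). Each call was lost on leaving out 1 library, in 6 of 9 such fits under the double-heterozygous label (without replicates 15, 16 or 17 of that label or wild-type replicates 1, 2 or 5, adjusted p up to 0.0889) and in 8 of 9 in Foxa2+/- (all except that without wild-type replicate 3, adjusted p up to 0.0972). In Falcor-/- Cspg4 was not called (limma adjusted p = 0.105). It was called there without Falcor-/- replicate 10 (-1.43, adjusted p = 0.037), a fit that called 596 of 15249 genes lower. Notch3, the Notch receptor of mural cells, was called in no comparison, apart from the alternatives given here. It lay at 10.64, 10.85, 11.62 and 10.73 in the libraries labelled double-heterozygous, 10.56, 11.08, 9.84, 10.71 and 10.78 in Falcor-/-, 10.80, 11.74, 10.95 and 11.17 in Foxa2+/- and 11.45, 11.09, 10.79, 11.31 and 11.53 in wild type. Its change was -0.27 (95% confidence interval of limma -0.83 to 0.29) under the double-heterozygous label and -0.07 (-0.62 to 0.49) in Foxa2+/-. It was called lower in Falcor-/- than in Foxa2+/- with library weights, an alternative that gives noisier libraries less say (-0.62, limma adjusted p = 0.0476). Without Falcor-/- replicate 7 it was called lower in Falcor-/- than in Foxa2+/- (-0.70, adjusted p = 0.0492) and than in wild type (-0.76, adjusted p = 0.0327). These fits called many genes. Of 15249, 2518 were called lower in Falcor-/- than in Foxa2+/- with library weights. Without Falcor-/- replicate 7, 2454 were called lower than in Foxa2+/- and 1800 lower than in wild type.

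Vim and Macf1 are expressed well beyond the mesenchyme. Vimentin, from Vim, the intermediate filament of mesenchymal, endothelial and blood cells, lay between 15.43 and 16.67 in all libraries and was not called against wild type, with changes of -0.16, 0.35 and 0.08 in the double-heterozygous label, Falcor-/- and Foxa2+/-. With library weights Vim was called higher in Falcor-/- than in wild type (0.48, limma adjusted p = 0.0317) and lower under the double-heterozygous label than in Falcor-/- (-0.56, adjusted p = 0.048). The second difference was also called without Falcor-/- replicate 7 (adjusted p = 0.0475) or replicate 8 (adjusted p = 0.0374). Of 15249 genes, the weighted fit called 1816 higher in Falcor-/- than in wild type. It called 615 lower under the double-heterozygous label than in Falcor-/-, and the fits without Falcor-/- replicate 7 or 8 called 574 and 590 lower. Macf1, which links microtubules and actin, lay at 14.33, 14.15, 14.95 and 14.95 in the libraries labelled double-heterozygous, 14.77, 15.17, 14.28, 14.51 and 14.92 in Falcor-/-, 14.86, 15.03, 15.15 and 15.02 in Foxa2+/- and 15.67, 15.62, 15.39, 15.70 and 15.38 in wild type. All 13 mutant libraries lay below all 5 wild-type libraries. Macf1 fell by 0.96 (SE 0.18, limma adjusted p = 0.0016) under the double-heterozygous label and by 0.82 (SE 0.17, adjusted p = 0.0122) in Falcor-/-. Its Foxa2+/- change of -0.54 (SE 0.18) did not pass (adjusted p = 0.0878). That change was called with library weights (adjusted p = 0.00788) and in the fit of the compared genotypes only (adjusted p = 0.00698). Those fits called 1029 and 718 of 15249 genes lower in Foxa2+/-.

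Called members were found in each role under at least the double-heterozygous label. The share of all genes tested called lower was 7.57% under that label, 4.24% in Falcor-/- and 4.15% in Foxa2+/-. In groups this small, single calls are a description. Under the double-heterozygous label 7 of 11 tested fibroblast genes, 8 of 10 matrix genes, 3 of 4 smooth muscle genes, 2 of 3 pericyte genes and 1 of 2 broad genes were called lower, with median changes of -2.11, -2.17, -1.36, -1.58 and -0.56. In Falcor-/- the counts were 2 of 11, 1 of 10, 0 of 4, 0 of 3 and 1 of 2, with medians of -0.60, -0.89, -0.24, -0.68 and -0.24. In Foxa2+/- they were 7 of 11, 6 of 10, 3 of 4, 2 of 3 and 0 of 2, with medians of -2.36, -1.71, -1.27, -1.70 and -0.23. Differences between the roles were not tested, since the groups hold as few as 2 genes.

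**Figure D3:**
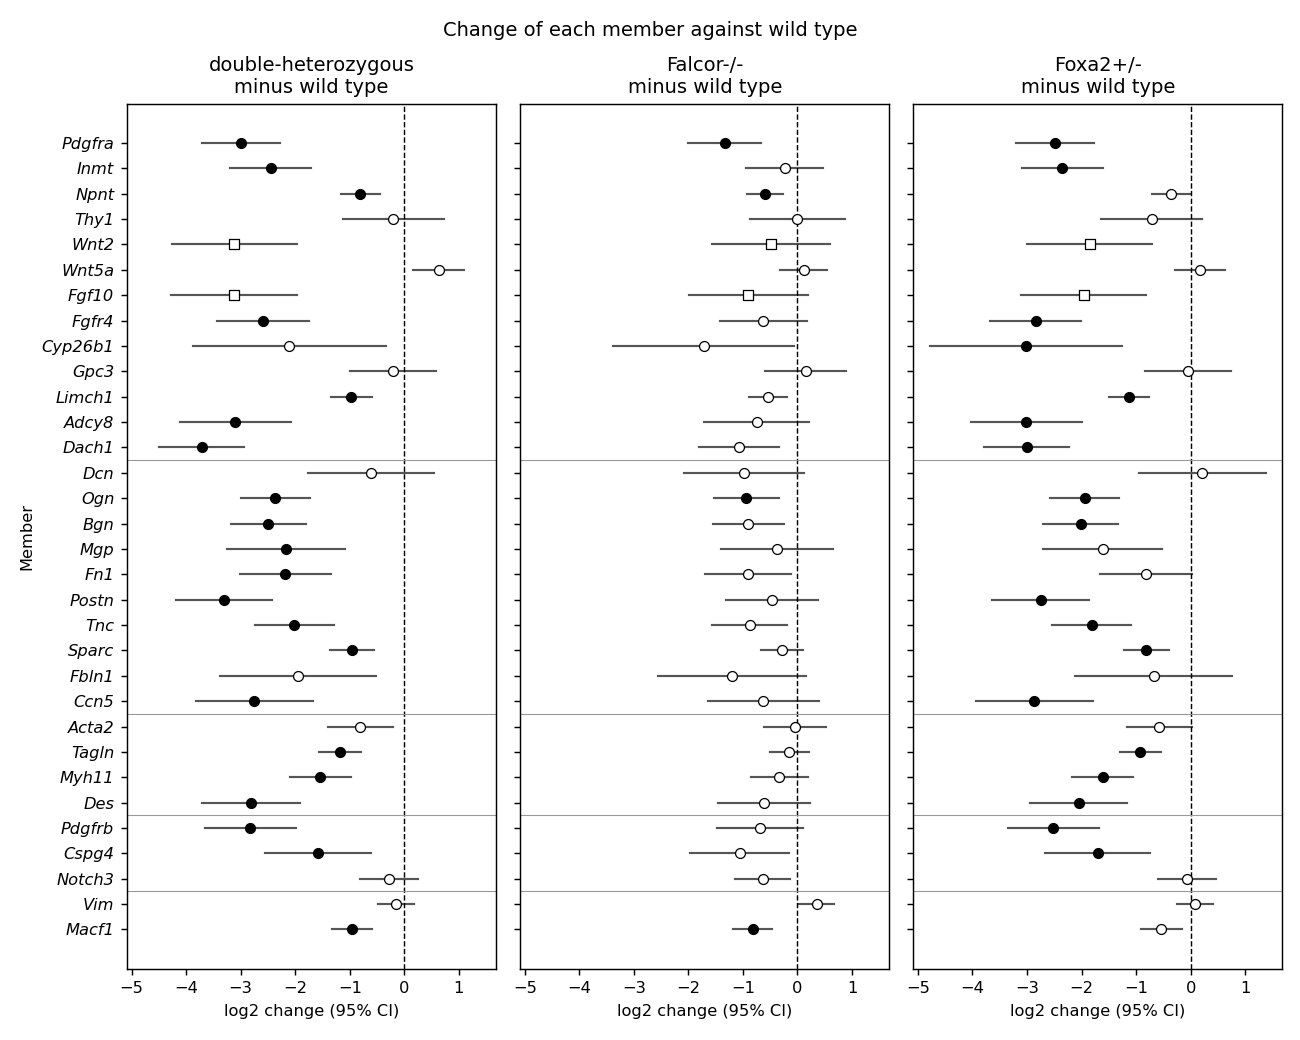
Change of each member against wild type on the log2 scale (dots) with the 95% confidence interval of limma (lines), for the double-heterozygous label, Falcor-/- and Foxa2+/-. Filled dots passed an adjusted p of 0.05, open dots did not, and squares are Wnt2 and Fgf10, which were under the filter. In Falcor-/- the 4 filled dots are Pdgfra, Npnt, Ogn and Macf1, against 21 under the double-heterozygous label and 18 in Foxa2+/-.

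Libraries that did not overlap gave similar counts. Among the tested members, every library lay below every wild-type library for 22 under the double-heterozygous label (7.1% of all genes tested), for 2 in Falcor-/- (2.31%), which were Fbln1 and Macf1, and for 18 in Foxa2+/- (5.48%). With Wnt2 and Fgf10, which were measured but not tested, the counts were 24, 2 and 19 of 32. The members called in Falcor-/- were Pdgfra, Npnt, Ogn and Macf1. Their count depended on single libraries, and was 9 without Falcor-/- replicate 10, 8 without wild-type replicate 3, 2 without Falcor-/- replicate 6, Falcor-/- replicate 9 or wild-type replicate 4, and 1 without Falcor-/- replicate 8, wild-type replicate 1 or wild-type replicate 2. The calls over all genes moved too. In the same order, these fits called 596, 669, 269, 242, 283, 215, 142 and 164 of 15249 genes lower, against 647 in the main fit. The change in the count is therefore not particular to the members. Of the 4 members called in the main fit, Macf1 kept its call in all 17 alternatives (adjusted p 0.00344 to 0.0367).

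The mutant genotypes were then set against each other. In Falcor-/- against Foxa2+/- 14 of 30 members were called higher and 0 lower, against 8.56% and 8.1% of all genes tested. They were Pdgfra, Inmt, Fgfr4, Limch1, Adcy8, Dach1, Ogn, Bgn, Postn, Ccn5, Tagln, Myh11, Des and Pdgfrb. The largest of these differences was that of Postn, 2.28 (SE 0.42, limma adjusted p = 0.00508). Adcy8 and Ccn5 had Foxa2+/- means below the minimum of 6 and passed the filter through other groups, so their calls are given as a description. The count was 9 without Falcor-/- replicate 10 or without Foxa2+/- replicate 13, where 761 and 433 of 15249 genes were called higher. Of the 14 calls 9, among them those of Postn, Dach1, Pdgfrb and Myh11, were kept in every alternative.

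Under the double-heterozygous label against Falcor-/- 13 of 30 members were called lower and 0 higher, where 3.0% of all genes tested were called lower and 2.15% higher. They were the 14 members just named, without Limch1. Adcy8 had a mean of 5.08 under the double-heterozygous label, below the filter minimum, and passed the filter through other groups. Its call is therefore given as a description. Postn changed by -2.84 (SE 0.42, limma adjusted p = 0.00277), Dach1 by -2.65 (SE 0.37, adjusted p = 0.00233), Des by -2.19 (SE 0.42, adjusted p = 0.00658) and Pdgfrb by -2.14 (SE 0.40, adjusted p = 0.00542). Of the 13 calls 11 kept their call in every alternative. That of Ccn5 was lost in 4 of 9 fits without 1 library (without replicates 16, 17 or 18 of the double-heterozygous label or Falcor-/- replicate 10, adjusted p up to 0.063), and that of Myh11 in the fit of the compared genotypes only (adjusted p = 0.0846). Both comparisons use the same Falcor-/- libraries, so the lists are not independent.

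With the double-heterozygous label set against Foxa2+/-, limma called 0 of 30 members, where 2.43% of all genes were called in either direction. At an unadjusted p below 0.05 there were 3. With library weights there were 2, namely Fn1 (-1.61, adjusted p = 0.013) and Macf1 (-0.58, adjusted p = 0.0184). That weighted fit called 2125 of all 15249 genes in this comparison, against 370 in the fit without weights, so the 2 calls are no excess over all genes. In the fit without weights Fn1 had a change of -1.36 (SE 0.42, adjusted p = 0.0954). The median change over the tested members was -0.24, and 24 of the 32 measured members were lower on average under the double-heterozygous label. Tagln was the 1 member whose libraries did not overlap (5.38% of all genes lay wholly below), at 8.47 to 8.79 against 8.80 to 8.98 in Foxa2+/- (change -0.25, SE 0.19, adjusted p = 0.496, exact permutation p = 0.0286, the smallest that 4 against 4 can give). A p that misses the threshold does not show that the 2 groups are alike.

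Within each genotype single libraries stood high or low for many members at once. Under the double-heterozygous label replicate 16 was lowest for 17 of 32 members. Falcor-/- replicate 10 was the highest of its group for 22 members and lowest for 0, and Falcor-/- replicate 8 was lowest for 17. In Foxa2+/- replicate 14 was highest for 14. Among the 5 wild-type libraries replicate 3 was lowest for 23 members and replicate 5 highest for 20. The mean over all 32 members ran from 8.83 to 9.14 under the double-heterozygous label, 9.78 to 10.98 in Falcor-/-, 9.14 to 9.79 in Foxa2+/- and 10.18 to 11.36 in wild type.

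Endothelial markers fell in the same groups as the members, and markers of some other cells did not. Of 12 macrophage markers 6, 6 and 0 were lower in the double-heterozygous label, Falcor-/- and Foxa2+/-, and 0 of 5 mesothelium markers were called. In that order 7.57%, 4.24% and 4.15% of all genes tested were called lower, and 7.21%, 5.23% and 1.96% higher. The mean of 24 endothelial markers was 9.87 to 10.50 in the libraries labelled double-heterozygous, 10.98 to 12.75 in Falcor-/-, 10.47 to 10.84 in Foxa2+/- and 11.60 to 12.92 in wild type. Of the 24, limma called 21, 2 and 20 lower than wild type in the same order of mutants, for instance Cdh5, the endothelial cadherin, at 12.6% of wild type under the double-heterozygous label (change -2.99, adjusted p = 6.13e-05). The mean of 15 pan-epithelial markers was 12.90 to 13.24, 12.82 to 13.13 and 12.88 to 13.08 in the mutants and 12.75 to 12.91 in wild type, with 4, 3 and 2 called higher and 0 lower. No marker of these lists was at the lowest deposited value of 1 in any library. The endothelial and mesenchymal levels were thus low in the same libraries, and the part of the make-up of cells in the members' changes was not tested.

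**Figure D4:**
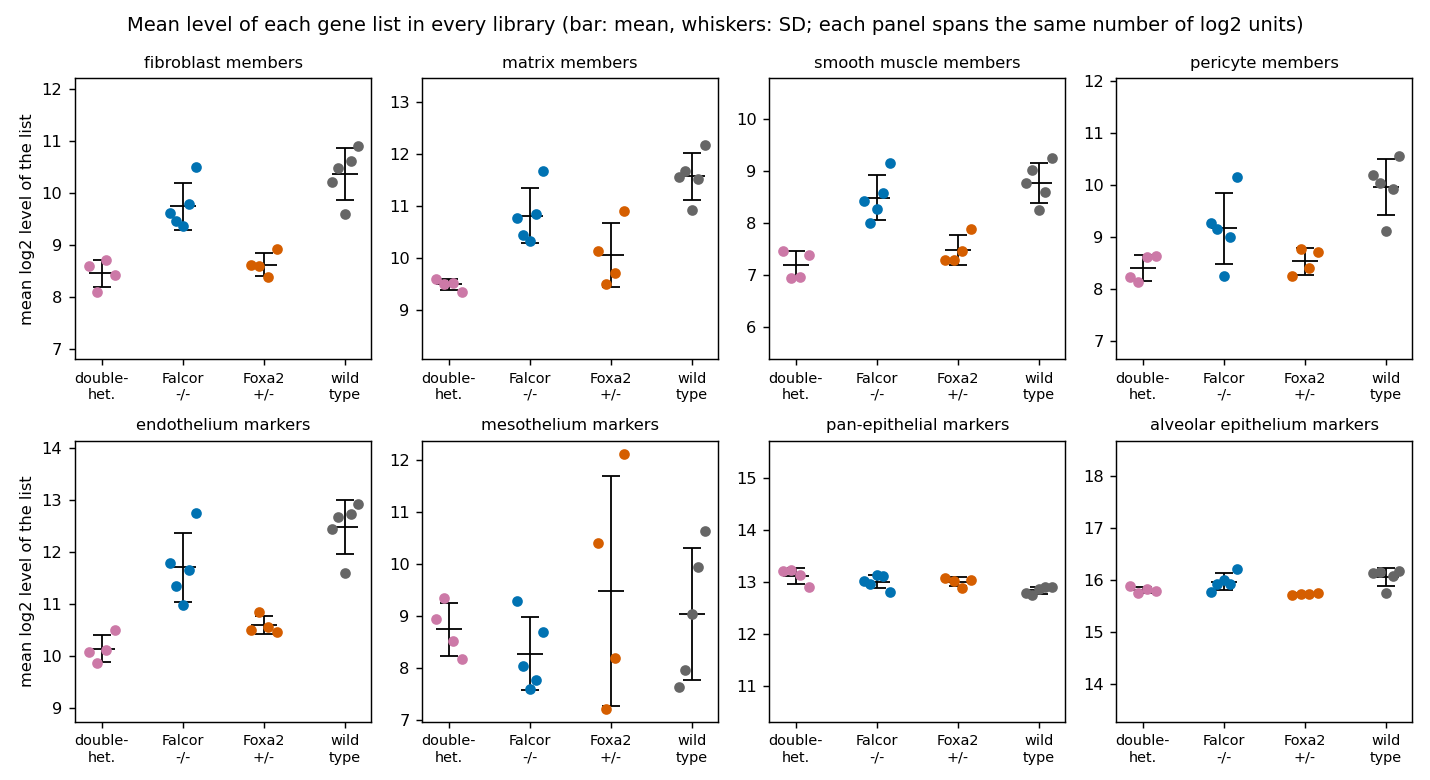
Mean log2 level over the genes of each list in each library (dots), with the mean and SD of each genotype. Fibroblast, matrix, smooth muscle and pericyte members and 24 endothelial markers are lowest in both groups lacking a Foxa2 copy, mesothelium markers scatter from 7.21 to 12.12 within Foxa2+/-, and 15 pan-epithelial markers stay within 12.75 to 13.24.

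Other markers of the same cells, not among the 37, were counted too. These lists were also chosen with earlier results of these data known, so their counts are a description. For comparison, 7.57%, 4.24% and 4.15% of all genes tested were called lower in the double-heterozygous label, Falcor-/- and Foxa2+/-. Under that label 7.21% were called higher. Of 12 tested pericyte markers 8 fell under the double-heterozygous label, 0 in Falcor-/- and 8 in Foxa2+/-, led by Gucy1b1, a subunit of soluble guanylate cyclase (-3.09, limma adjusted p = 8.54e-05, and -2.73, adjusted p = 0.000737). Their median changes were -2.03, -0.50 and -1.91 in the double-heterozygous label, Falcor-/- and Foxa2+/-. Of 18 further fibroblast markers 7 fell and 1 rose under the double-heterozygous label, 2 fell in Falcor-/- and 6 fell in Foxa2+/-, with smaller medians of -0.71, -0.27 and -0.59. The one that rose was Serpinf1 (0.52, SE 0.15, adjusted p = 0.0301), named after its value was seen. Dpt, the matrix protein dermatopontin, changed by -2.87 (adjusted p = 4.11e-05) under the double-heterozygous label and by -2.27 (adjusted p = 0.000686) in Foxa2+/-, and the gelatinase Mmp2 by -1.86 (adjusted p = 8.4e-05), -0.77 in Falcor-/- (adjusted p = 0.0415) and -2.09 in Foxa2+/- (adjusted p = 0.000595). Of 13 further smooth muscle markers 5, 1 and 3 fell in the double-heterozygous label, Falcor-/- and Foxa2+/-, and Mylk, the myosin light chain kinase, was called in all 3 (-1.60, -0.85 and -0.83). Their medians were -0.54, -0.15 and -0.21.

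The signals around the members were read from lists of ligands, receptors and regulators. Of all genes tested, 7.57% were called lower and 7.21% higher under the double-heterozygous label. The shares were 4.24% and 5.23% in Falcor-/- and 4.15% and 1.96% in Foxa2+/-. Single calls in such short lists are a description and not a result about a pathway. Of 4 PDGF ligands, Pdgfd, which acts on Pdgfrb, fell by 1.93 (SE 0.32, limma adjusted p = 0.000623) under the double-heterozygous label and by 2.02 (SE 0.32, adjusted p = 0.000927) in Foxa2+/-, and Pdgfb, made by endothelium for pericytes, fell by 0.88 (SE 0.21, adjusted p = 0.0187) in Foxa2+/-. In Falcor-/- 0 of the 4 ligands were called. Of 7 regulators of smooth muscle genes 2, 0 and 1 fell in the double-heterozygous label, Falcor-/- and Foxa2+/-, with medians of -0.19, -0.21 and 0.05. Foxf1, a forkhead factor of lung mesenchyme and endothelium, fell to 12.8% of wild type under the double-heterozygous label (change -2.97, SE 0.38, adjusted p = 8.33e-05) and to 18.6% in Foxa2+/- (change -2.43, SE 0.38, adjusted p = 0.000887). Klf4 changed by -0.62 (adjusted p = 0.0122) under the double-heterozygous label. Of 11 genes on the FGF side 2 fell and 1 rose under the double-heterozygous label, 0 fell and 1 rose in Falcor-/-, and 3 fell and 1 rose in Foxa2+/-. Fgf7, a mesenchymal ligand for epithelium, changed by -1.65 (adjusted p = 0.000295) and -1.10 (adjusted p = 0.0135) in the double-heterozygous label and Foxa2+/-. Spry4, an inhibitor of FGF signalling, changed by -1.80 (adjusted p = 0.00017) under the double-heterozygous label. Spry1, another such inhibitor, was the one that rose in each, by 0.33 (adjusted p = 0.0314) under that label, 0.43 (adjusted p = 0.0141) in Falcor-/- and 0.33 (adjusted p = 0.0488) in Foxa2+/-. In Foxa2+/- the ligand Fgf1 (-0.47, adjusted p = 0.00756) and the receptor Fgfr3 (-0.51, adjusted p = 0.0134) fell too. Of 6 tested hedgehog genes, the signal transducer Smo was the single one called against wild type (-0.71, adjusted p = 0.0263, in Falcor-/-).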

How the data were processed

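Levels were taken as deposited: log2 values per Ensembl gene, 1 file a library, 18 in all. The authors, per the submitters' processing notes, used STAR, mm9 and limma; program versions, read counter, annotation and strand setting were not stated there. The lowest value is 1 and the highest 18.73, and the library medians differ by 0.0032 and the 5th percentiles by 0.0579, so the libraries have nearly a common distribution; how it was set is not given in the sources used here. Depth is unknown and no counting interval is given. Symbols came from GENCODE vM21 by identifier (14994 of 15544 matched, 550 did not).

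Genes with a mean under 6 were left out (295), and 15249 were fitted in limma 3.58.1 (R 4.3.3) with 1 mean per genotype over all 18 libraries, empirical Bayes with a trend on intensity (residual degrees of freedom 14, total 17.0), and Benjamini-Hochberg adjustment over all genes tested. A change is first-named minus second-named mean log2 level, and a percentage of wild type is its antilog. The exact permutation tests are 2-sided tests of the difference of means, with 252, 126 and 70 regroupings of 5 against 5, 5 against 4 and 4 against 4. Calculations were tested on simulated data.

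Every listed member could be named. Genes of other lists were named from the 3 called with the smallest p per comparison with wild type, apart from Serpinf1 and the Foxa2+/- value of Spry1, added after they were seen. Members and lists were chosen with earlier results of these data known, and Cyp26b1, Adcy8, Dach1, Ccn5 and Fgfr4 had already been seen among the large Foxa2+/- falls, so these changes are not independent support. The labels do not say whether replicates are separate animals, so p-values measure the spread between these samples, which may be technical. The labels give no batch. Alternatives were no filter, a minimum of 8, no trend, a robust prior, library weights, centring on the pan-epithelial mean, a fit of the compared genotypes only, and leaving out each library.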

Additional observations from a re-analysis of the deposited data

Results flagged for a closer look

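Of 128 groups of values (32 members in 4 genotypes) 9 held a library far from the others of its group, where chance gives about 5%. Under the double-heterozygous label replicate 16 was the low library for Npnt (13.54), Adcy8 (4.41) and Myh11 (6.21), and replicate 18 was the high one for Cspg4 (7.85). In wild type replicate 3 was the low library for Limch1 (14.11), Dach1 (8.97), Bgn (12.11) and Sparc (15.50), and replicate 5 the high one for Fbln1 (10.65). The same replicate 3 was lowest of wild type for 23 of the 32 members.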

How the results depend on the processing

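No paired analysis was possible because the genotypes share no replicate numbers. Of 70 called pairs of member and comparison, 56 kept their call in every alternative, and of 1099 alternative values 1014 kept their call, 85 missed the threshold and 0 turned direction. Leaving out 1 library gave 20 to 22 called members for the double-heterozygous label against wild type, 1 to 9 for Falcor-/- against wild type, 15 to 18 for Foxa2+/- against wild type, 9 to 15 for Falcor-/- against Foxa2+/-, 12 to 17 for the double-heterozygous label against Falcor-/- and 0 to 0 for that label against Foxa2+/-. Over all 15249 genes the same fits called, in the same order, 1342 to 2435, 354 to 3926 and 556 to 1118 against wild type. Between the mutants they called 764 to 4742, 412 to 1233 and 90 to 381. With a minimum mean of 8, which left 20 members tested, the counts were 10 for Foxa2+/- against wild type, 9 for Falcor-/- against Foxa2+/- and 8 for the double-heterozygous label against Falcor-/-. Of the 12972 genes tested there, 747, 2355 and 640 were called in the same comparisons. Library weights gave 14 calls of members that the fit without weights did not make. Of these, 2 members were called between the double-heterozygous label and Foxa2+/-, and the cause was not tested. Over all 15249 genes that comparison had 2125 calls with weights and 370 without. Depth is unknown, so the precision of low members such as Fgf10, Wnt2 and Adcy8 cannot be set.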

Other observations

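Lists of other cells and states were counted in the same fit. The shares of all genes tested called lower were 7.57%, 4.24% and 4.15% in the double-heterozygous label, Falcor-/- and Foxa2+/-. Those called higher were 7.21%, 5.23% and 1.96%. Single calls in these short lists are a description. Of 12 macrophage markers 6 fell under the double-heterozygous label, 6 in Falcor-/- and 0 in Foxa2+/-, among them the scavenger receptor gene Msr1 (change -3.43, limma adjusted p = 0.00235, under the double-heterozygous label and -2.67, adjusted p = 0.0215, in Falcor-/-). Of 12 alveolar epithelium markers 4, 0 and 4 were called lower in the double-heterozygous label, Falcor-/- and Foxa2+/-, with list means of 15.74 to 15.87, 15.76 to 16.21 and 15.70 to 15.75, against 15.74 to 16.17 in wild type. Of 10 airway markers 1 rose under the double-heterozygous label and 0 were called in the other mutants. Of 7 lymphocyte markers 1, 1 and 0 were called lower, and of 4 cardiac muscle genes and 5 mesothelium markers 0 were called against wild type. Of 12 immediate early and dissociation genes 2 fell under the double-heterozygous label, 2 rose in Falcor-/- and 0 were called in Foxa2+/-. Of 10 retinoic acid genes, in a list without the retinoic acid-clearing member Cyp26b1, Rdh10, which makes the retinoic acid precursor, rose by 0.53 (SE 0.14, adjusted p = 0.0199) under the double-heterozygous label and was the single one called against wild type.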
